A study of Mus musculus with 10 samples.

Results

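Genes for the endothelins, potent vasoconstrictor peptides, for their converting enzyme and receptors, for synthases of vasorelaxing mediators and for an angiotensin II receptor were examined in isolates of liver sinusoidal endothelial cells (LSEC) from mice on a diet that is used to produce fatty liver disease. The rule named 8 genes, Edn1, Edn3, Ednra, Ednrb, Ece1, Nos3, Ptgis and Agtr1a, and took the probe sets that the platform annotation gives these symbols. It found 7 genes with 1 probe set each, of 24704 named genes; Ednra is not analysed here.

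LSEC form the wall of the sinusoids, the small vessels through which blood flows past hepatocytes, and lie next to stellate cells, which can contract and narrow the vessel. Endothelins are made as precursors that endothelin-converting enzyme cuts to the active peptide. The peptide acts on receptor A, which contracts vascular muscle cells, and on receptor B, which in endothelium stimulates release of nitric oxide and prostacyclin and also removes endothelin from the circulation. Nitric oxide made by endothelial nitric oxide synthase and prostacyclin relax vessels, and angiotensin II constricts them through its type 1 receptor.

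The isolates came from female C57BL/6N mice, 10 weeks old when feeding began. For 10 weeks the mice ate either a CDAA diet, with 31% of its calories as fat and 1% cholesterol, or a control diet labelled Std; a field for the treatment duration gives days, whereas the growth protocol gives weeks. Each array carried the RNA of cells pooled from 3 mice and bound to CD146 beads, and there were 5 pools per diet, numbered CDAA 1 to CDAA 5 and Std 1 to Std 5. The series' design text speaks of endothelial Gata4 knockout mice, which none of the labels mention and which are not analysed here. Values are log2 signals, and a change is the CDAA mean minus the Std mean on that scale. "Rose" and "fell" are used for genes with a Benjamini-Hochberg adjusted p under 0.05 in limma over all genes. A log2 signal cannot be set against that of another gene, since probe sets differ in brightness, and no detection call is used here. The median over genes was 3.88.

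Markers of LSEC were bright in both diets (list mean 11.79 ± 0.06 with Std and 10.83 ± 0.42 with CDAA, SD, n = 5), and 11 of 13 fell. Of 12 general endothelial markers, such as Cdh5 and Kdr, 9 fell, and their mean was 11.19 to 11.35 in the Std arrays and 9.88 to 10.96 in the CDAA arrays, lowest in CDAA 3 and CDAA 1. Among markers of other cells, 8 of 9 for recruited macrophages, 7 of 7 for bile duct epithelium, 7 of 15 for stellate cells and fibroblasts (1 fell), 3 of 10 for smooth muscle and pericytes (1 fell), 3 of 9 for hepatocytes (2 fell) and 1 of 11 for Kupffer cells and macrophages (4 fell) rose. Over all genes 7.49% rose and 9.13% fell. Std 3 held far more neutrophil marker signal than any other array, at a mean of 10.08 against 4.18 to 4.56 in the other Std arrays. The CDAA arrays lay between these, at 5.59 to 6.83, and 0 of 8 neutrophil markers passed. The isolates are mixtures, so fewer cells of a type and less RNA per cell cannot be told apart.

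Among the 7 genes the endothelin B receptor rose with CDAA, the converting enzyme Ece1 and the prostacyclin synthase Ptgis fell, and Edn1, Edn3, Nos3 and Agtr1a did not pass. That is 1 gene risen and 2 fallen of 7, where 7.49% of all genes rose and 9.13% fell, 16.6% together. The same 3 genes had no overlap between the arrays of the diets, as had 13.9% of all genes. These shares of all genes include dim genes, whereas all 7 genes had means above the median over genes. In a fit limited to genes above that median, 4341 passed, where 12351 genes besides any 1 member were above it. That is a larger share than 16.6%, and 3 members passed in that fit as well. The median change of the 7 genes was -0.21, and that of all genes was -0.02. Without CDAA 1 and CDAA 3 only Ednrb passed.

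**Figure D1:**
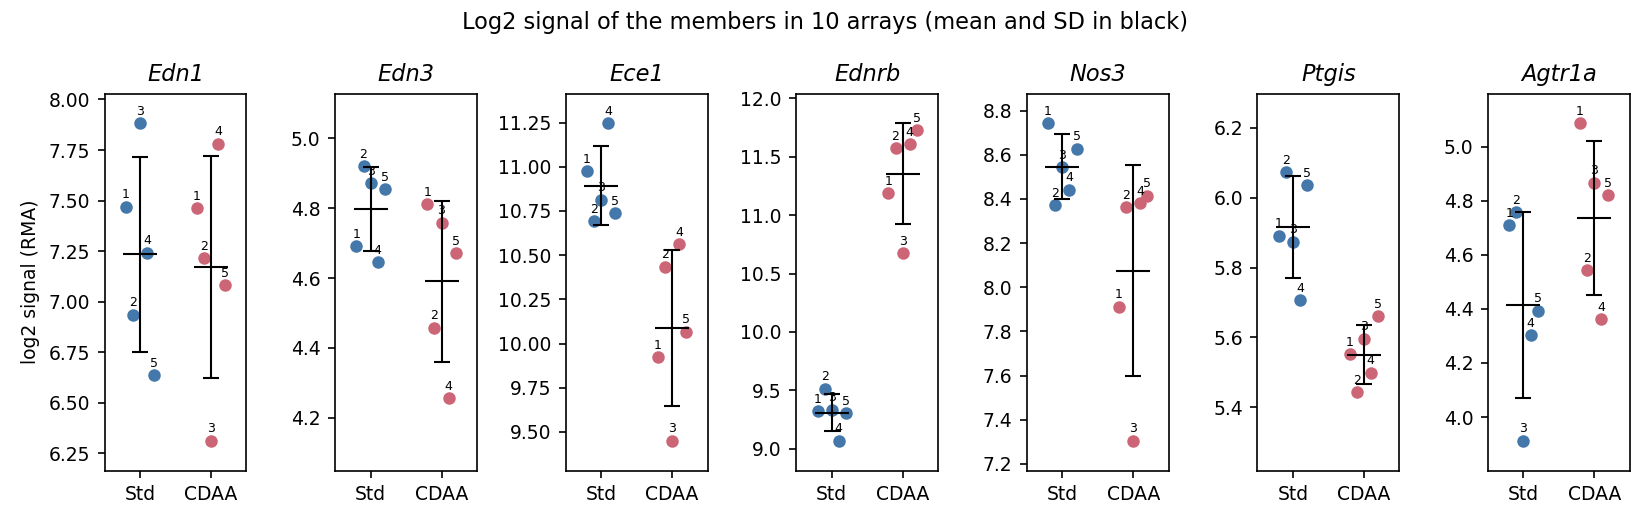
Log2 signal of the 7 genes in each of the 10 arrays, with a separate vertical scale for each gene. Points are arrays, blue for Std and red for CDAA, numbered by replicate, and black marks show the mean and SD of 5 arrays. Every CDAA array lies above every Std array for Ednrb and below for Ece1 and Ptgis, and the arrays of the other genes overlap.

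The promoter sequences of the receptor that rose and of its ligand are given first, since they are the pair in which one gene moved and the other did not pass. RefSeq windows of 300 bases, from 250 before to 50 after an annotated transcript start (build GRCm38.p6), were found for 4 of the 7 genes, with 4 starts for Ece1 and 1 each for Edn1, Edn3 and Ednrb. The 250 bases before the start of Ednrb (chr14:103843702-103843951, minus strand) and of Edn1 (chr13:42301226-42301475, plus strand) are printed 5′ to 3′, followed by the first 30 bases after the Edn1 start (chr13:42301476-42301505). For Ednrb the annotated gene begins 807 bases upstream of the start used, so this window lies within the gene record.
Ednrb, before the start: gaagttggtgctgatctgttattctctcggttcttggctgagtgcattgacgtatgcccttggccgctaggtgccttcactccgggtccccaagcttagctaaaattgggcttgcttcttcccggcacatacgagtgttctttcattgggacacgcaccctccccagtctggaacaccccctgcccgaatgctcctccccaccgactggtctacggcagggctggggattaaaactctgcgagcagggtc
Edn1, before the start: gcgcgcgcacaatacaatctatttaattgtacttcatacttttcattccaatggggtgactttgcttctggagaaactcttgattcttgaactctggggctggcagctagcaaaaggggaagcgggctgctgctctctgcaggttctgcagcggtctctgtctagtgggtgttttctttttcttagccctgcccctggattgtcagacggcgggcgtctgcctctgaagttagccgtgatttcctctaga
Edn1, after the start: gccgggtcTTATCtctggctgCACGTtgcc

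Capitals mark matches, on either strand, to 3 motifs: GATAA, the core that GATA factors bind, ACGTG, the core of hypoxia response elements, and TGANTCA, the AP-1 site. In the Edn1 window GATAA and ACGTG matched once each, both on the minus strand and both after the start, with their first bases at positions 9 and 22 counted from 1 at the start. Neither overlaps the other. These positions count from the annotated start used here, and whether Edn1 transcripts begin there in these cells was not tested. The Ednrb and Edn3 windows held none of the 3, and among the Ece1 windows one held ACGTG on both strands in overlapping positions. Of 32851 RefSeq windows of this length, 25.4% held GATAA, 19.6% ACGTG and 7.81% TGANTCA. A match describes letters only, and no match says nothing of a factor.

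Neither ligand gene passed, and neither had an unadjusted limma p under 0.05. Edn1 (probe set 13614_at) encodes endothelin-1. Its log2 signal was 7.46, 7.21, 6.31, 7.78 and 7.08 in CDAA 1 to CDAA 5 and 7.47, 6.94, 7.88, 7.24 and 6.64 in Std 1 to Std 5. The lowest and the highest array of the 10 were CDAA 3 and Std 3, and the diets overlapped almost entirely. The change was -0.06 ± 0.27 (SE; limma adjusted p = 0.919), with a 95% confidence interval of -0.66 to 0.53, which spans both directions. The sign rested on single arrays: it was 0.15 without CDAA 3 and 0.10 without Std 3.

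Edn3 (13616_at) encodes endothelin-3, which activates the B receptor and is known for its part in neural crest development. Its signal was 4.81, 4.46, 4.76, 4.26 and 4.67 in CDAA 1 to CDAA 5 and 4.69, 4.92, 4.87, 4.65 and 4.85 in Std 1 to Std 5. CDAA 4 and CDAA 2 were the lowest arrays, and the other CDAA arrays lay within the Std range. The change was -0.21 ± 0.12 (SE; limma adjusted p = 0.298; interval -0.47 to 0.05), and -0.12 without CDAA 4.

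Ece1 (230857_at) encodes the membrane protease that releases active endothelin from its precursor. The signal was 9.92, 10.44, 9.45, 10.56 and 10.07 in CDAA 1 to CDAA 5, against 10.98, 10.69, 10.81, 11.25 and 10.74 in Std 1 to Std 5. All CDAA arrays were below all Std arrays, with CDAA 3 and CDAA 1 the lowest. Ece1 fell by 0.81 (SE 0.19; adjusted p = 0.0137 in limma; interval -1.23 to -0.38), from 10.89 ± 0.22 to 10.09 ± 0.44 (SD, n = 5), a 1.75-fold difference in signal. It passed in each of the 10 fits that left out 1 array (-0.93 to -0.65), but not without both CDAA 1 and CDAA 3 (-0.54, adjusted p = 0.0541). The low arrays were also those with the least endothelial marker signal. Taken relative to the mean of the 12 general endothelial markers in the same array, Ece1 stood at -0.60 to -0.33 in CDAA and -0.54 to -0.11 in Std, so these ranges overlapped. With that mean as a covariate the estimate was -0.05 (limma adjusted p = 0.927). That mean was 9.88 to 10.96 in CDAA and 11.19 to 11.35 in Std, without overlap. The covariate thus moves with diet, here and for the genes below, and no cause of the fall is read from this fit.

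Ednrb (13618_at) encodes the endothelin B receptor, present on endothelium and on stellate cells. Its log2 signal was 11.19, 11.57, 10.67, 11.61 and 11.73 in CDAA 1 to CDAA 5 and 9.32, 9.51, 9.34, 9.07 and 9.30 in Std 1 to Std 5. The lowest CDAA array, CDAA 3, was more than 1 log2 unit above the highest Std array, Std 2. Ednrb rose by 2.05 ± 0.18 (SE, limma adjusted p = 4.44e-05; interval 1.65 to 2.44), which is 4.13-fold in signal, and the size of its change exceeded that of 99.3% of genes. It passed in each of the 10 fits that left out 1 array (1.95 to 2.22).

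The receptor was lowest in the CDAA arrays where endothelial markers were lowest, and relative to these markers the CDAA arrays lay closer together and the Std arrays farther apart. Relative to the general endothelial mean of the same array Ednrb stood at 0.65 to 1.06 in CDAA and at -2.28 to -1.72 in Std. The SD over the CDAA arrays was 0.43 for the log2 signal and 0.16 for this difference, and over the Std arrays 0.16 and 0.21. With the endothelial mean as a covariate the rise was 2.68 (limma adjusted p = 0.000148), and without CDAA 1 and CDAA 3 it was 2.33 (adjusted p = 6.1e-06). Markers of other cells that carry this receptor were also higher with CDAA. The stellate cell and fibroblast mean was 6.14 to 7.55 in CDAA, highest in CDAA 3, and 5.53 to 6.13 in Std. In that list 7 of 15 genes rose, among them Cygb (1.62), Pdgfra (1.51) and Pdgfrb (1.02), Ecm1 fell by 1.16, and 7 did not pass, with Lrat at 0.53 and Reln at -0.09. The smooth muscle and pericyte mean was 6.52 to 6.81 in CDAA, lowest in CDAA 3, and 6.05 to 6.42 in Std. Of its 10 genes, Rgs5 (2.45), Mylk (0.90) and Tagln (0.80) rose, Smtn fell by 0.73, and 6 did not pass, with Cspg4 at 0.00077. The part of stellate cells and pericytes in the rise of Ednrb was not tested.

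**Figure D2:**
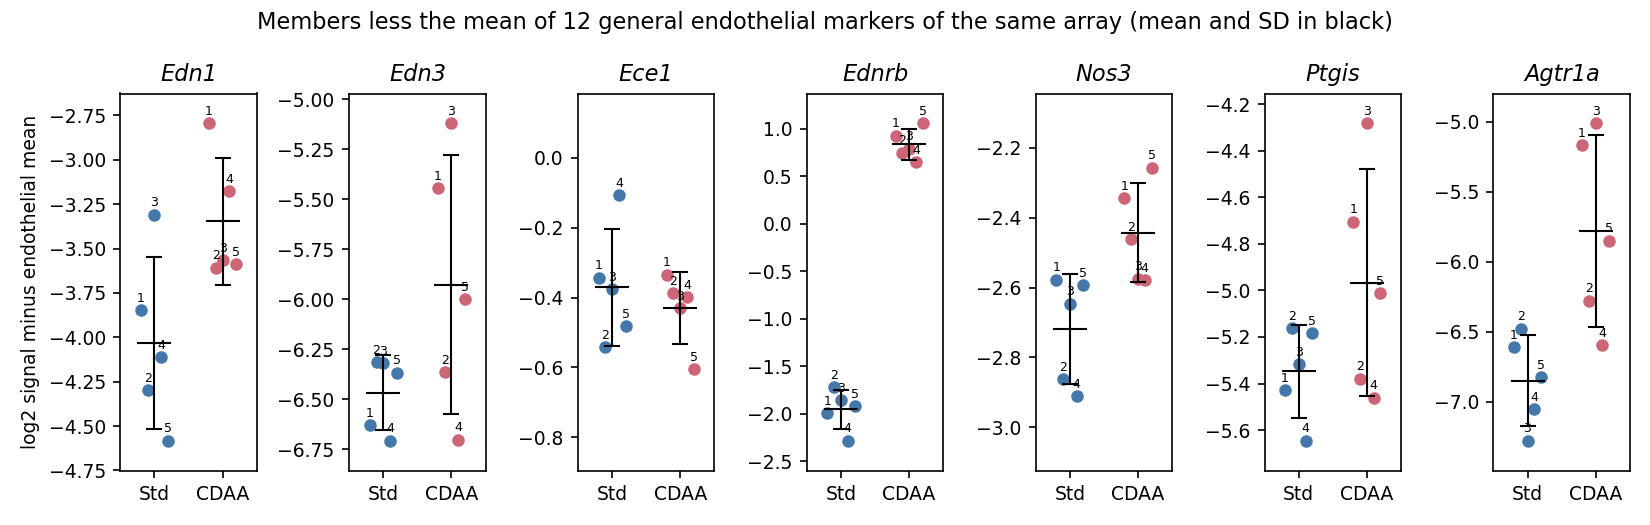
Each gene's log2 signal minus the mean log2 signal of 12 general endothelial markers of the same array, with points for arrays (blue Std, red CDAA, numbered by replicate) and the mean and SD of 5 arrays in black. Ednrb lies at 0.65 to 1.06 in CDAA and -2.28 to -1.72 in Std without overlap, and the ranges of the other 6 genes overlap. The endothelial mean itself differed by -0.75 between the diets, which shifts every gene's difference upward by the same amount.

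Of the synthases of relaxing mediators, Ptgis fell and Nos3 did not pass. Nos3 (18127_at), endothelial nitric oxide synthase, had a signal of 7.91, 8.36, 7.30, 8.38 and 8.41 in CDAA 1 to CDAA 5 and 8.74, 8.37, 8.54, 8.44 and 8.63 in Std 1 to Std 5. CDAA 3 and CDAA 1 were lowest, CDAA 2 was just below the lowest Std array, Std 2, and CDAA 4 and CDAA 5 lay between Std 2 and Std 4. The change was -0.47 ± 0.20 (SE), with an interval of -0.90 to -0.05, and it did not pass after adjustment over all genes (limma adjusted p = 0.132). It was -0.28 without CDAA 3 and -0.16 without CDAA 1 and CDAA 3. Relative to the general endothelial mean, Nos3 was -2.58 to -2.26 in CDAA and -2.91 to -2.58 in Std, a difference of 0.28. The endothelial mean itself differed by -0.75 between the diets, so subtracting it shifts every gene's difference upward by the same amount. A turned sign after subtraction is therefore no finding about Nos3. The covariate estimate was likewise 0.28 (limma adjusted p = 0.53).

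Ptgis (19223_at) encodes prostacyclin synthase. Its signal was 5.55, 5.44, 5.60, 5.50 and 5.66 in CDAA 1 to CDAA 5 and 5.89, 6.07, 5.87, 5.71 and 6.04 in Std 1 to Std 5. The nearest arrays of the diets, CDAA 5 and Std 4, were 0.047 apart. Ptgis fell by 0.37 (SE 0.10, limma adjusted p = 0.0202; interval -0.57 to -0.16), 1.29-fold in signal. This call was near the threshold: it was lost without Std 2 (-0.33, adjusted p = 0.0502), without Std 5 (-0.34, adjusted p = 0.0518) and without CDAA 1 and CDAA 3 (-0.38, adjusted p = 0.0576). Its lowest CDAA arrays were CDAA 2 and CDAA 4. Relative to the general endothelial mean Ptgis was -5.46 to -4.28 in CDAA and -5.65 to -5.16 in Std, which overlap. The difference of 0.38 holds the same upward shift as for Nos3. With that mean as a covariate the estimate was -0.45, of the opposite sign, and did not pass (limma adjusted p = 0.217). No direction relative to the endothelial markers is drawn from these values.

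Agtr1a (11607_at), the angiotensin II type 1a receptor, had a signal of 5.09, 4.54, 4.87, 4.36 and 4.82 in CDAA 1 to CDAA 5. In Std 1 to Std 5 it was 4.71, 4.76, 3.91, 4.30 and 4.39. CDAA 1, CDAA 3 and CDAA 5 lay above all Std arrays, and the remaining ones overlapped. The change was 0.32 ± 0.18 (limma adjusted p = 0.272; interval -0.07 to 0.71), 0.16 without CDAA 1 and CDAA 3, 0.20 without Std 3, and 0.035 without all of these. CDAA 1, CDAA 3 and CDAA 5 also had the highest stellate cell and fibroblast means. Among the CDAA arrays they had the highest recruited macrophage and neutrophil means and the lowest LSEC and general endothelial means too. They were not the highest for smooth muscle, bile duct, hepatocyte or Kupffer cell means. The part of any of these cell types in the difference of Agtr1a was not tested.

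**Figure D3:**
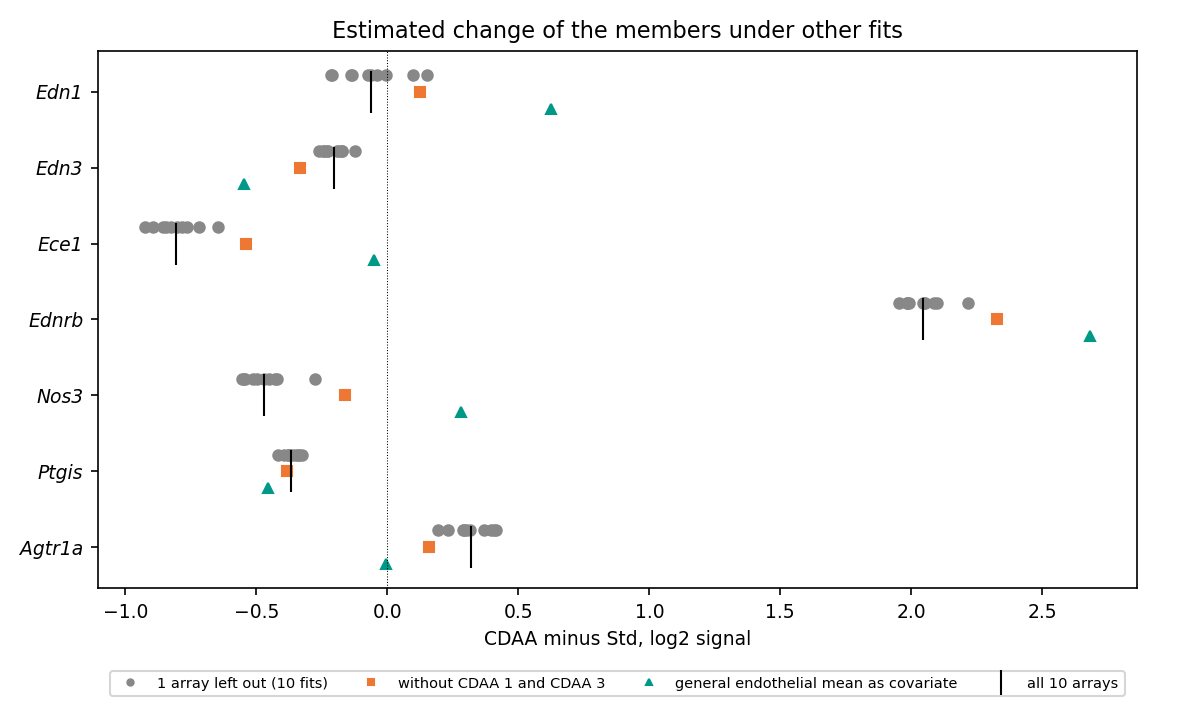
Estimated change (CDAA minus Std, log2 signal) of each gene with all 10 arrays (black line), with 1 array left out (grey), without CDAA 1 and CDAA 3 (orange) and with the general endothelial mean as a covariate (green). Ednrb lies between 1.95 and 2.68 in the fits drawn, Ece1 moves from -0.81 to -0.05 with the covariate, and Edn1, Nos3 and, at -0.0047, Agtr1a change sign.

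The genes whose pattern over the 10 arrays was most like that of each member were taken from 12351 other genes with a mean above the median. For Ednrb these were Cd34, a sialomucin of capillary endothelium (Pearson r = 0.988), Eif3f, a subunit of a translation initiation factor (0.982), and the ribosomal protein gene Rpl8 (0.975). Their changes were 1.37, 0.52 and 0.40, so the likeness is in the order and spacing of arrays and not in size. Ece1 was most like Pigt (r = 0.989), Plcg1, a phospholipase C of receptor tyrosine kinases (0.988), and the semaphorin Sema6a (0.988), which fell by 0.36, 0.64 and 0.84. Ptgis was most like Paqr9 (0.949), the macrophage scavenger receptor Marco (0.939) and Bank1 (0.937). Marco fell by 1.88. For Nos3 they were the transcription factors Zeb1 (0.974) and Tead4 (0.968) and the carnitine transporter Slc22a5 (0.97), none of which passed (limma adjusted p = 0.0964, 0.152 and 0.21). For Edn1 the leading gene was Phf20 (0.90), for Edn3 Gbgt1 (0.931) and for Agtr1a Smc5 (0.937). The arrays share diet and cell composition, so these are descriptions.

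Of 94 measured other genes of the same pathways, 12 rose and 17 fell, which is 30.9% where 16.6% of all genes passed. The 16.6%, here and beside each list below, includes dim genes and was not matched to the lists in brightness. The median change of the 94 genes was -0.04 and that of all genes -0.02. Without CDAA 1, CDAA 3 and Std 3, 11 rose and 13 fell. With the general endothelial mean as a covariate 4 passed: Mme (2.36), Anpep (1.90) and Kcnn4 (1.53), which were higher, and Enpep (-0.68), which was lower. That covariate holds endothelial markers only. The part of other cell types in the rises of Mme, Anpep and Kcnn4 was not tested.

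In the list of endothelin processing and coupling, 1 of 15 genes rose and 4 fell. That is 33.3%, where 16.6% of all genes passed, and the median change was -0.05. Mme encodes neprilysin, a peptidase that degrades endothelin, natriuretic peptides and other peptides. It rose by 3.14 ± 0.29 (SE, limma adjusted p = 5.41e-05), from 4.38 ± 0.58 to 7.52 ± 0.51 (SD, n = 5). The genes that fell act behind the receptor: the phospholipases Plcb4 (by 0.89) and Plcb3 (by 0.48), the G protein subunit Gna11 (by 0.58) and the guanine nucleotide exchange factor Arhgef12 (by 0.53). Gna11 did not pass without CDAA 3 (-0.50), Std 1 (-0.58) or Std 5 (-0.55), and neither Gna11 (-0.32) nor Arhgef12 (-0.38) passed without CDAA 1 and CDAA 3. Gnaq, Gna12, Gna13, Rhoa and Rock1 did not pass, with differences of -0.18 to 0.13.

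Among 19 genes of nitric oxide and cyclic GMP signalling, 2 rose and 2 fell (21.1%, where 16.6% of all genes passed), with a median change of -0.13. Cbs, which makes cystathionine and can form hydrogen sulfide, rose by 1.22 ± 0.21 (SE, limma adjusted p = 0.0026), and Gucy1a1, a subunit of the nitric oxide receptor guanylate cyclase, by 0.98. Pde5a, the phosphodiesterase that removes cyclic GMP, fell by 0.90, and Ddah1, which degrades an inhibitor of nitric oxide synthases, by 0.75 (limma adjusted p = 0.00902). The Gucy1a1 call was lost in 6 of 10 fits with 1 array left out, those without CDAA 1 (0.78), CDAA 3 (0.88), CDAA 5 (0.94), Std 2 (0.97), Std 3 (0.91) or Std 4 (0.95). Cav1, whose product binds and restrains endothelial nitric oxide synthase, differed by -0.13, and the inducible synthase Nos2 by -0.27, and neither passed.

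Of 17 prostanoid genes, 4 rose and 3 fell (41.2%, where 16.6% of all genes passed), with a median change of 0.12. Ptgs2, the inducible cyclooxygenase, rose by 2.51 ± 0.38 (SE, limma adjusted p = 0.00101), from 5.42 ± 0.93 to 7.93 ± 0.43 (SD, n = 5). Std 3 was the highest Std array at 7.04, and without it the rise was 2.91. Hpgds, a prostaglandin D synthase of blood cells, rose by 2.03. Tbxa2r, the thromboxane receptor, fell by 1.42 (limma adjusted p = 0.000622), and Slco2a1, which takes up prostaglandins, by 1.29. Hpgd, which inactivates prostaglandins, also fell, by 0.69, and the thromboxane synthase Tbxas1 and the prostaglandin F receptor Ptgfr rose by 0.87 and 0.49. Ptgir, the prostacyclin receptor, differed by -0.02 without passing. The recruited macrophage mean was 7.84 to 9.13 in CDAA and 4.95 to 5.78 in Std; its part in the rise of Ptgs2, Hpgds and Tbxas1 was not tested.

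Of 9 genes of the renin-angiotensin system, 2 rose and 2 fell. That is 44.4%, where 16.6% of all genes passed, and the median change was 0.14. Anpep, the aminopeptidase that converts angiotensin III to IV, rose by 3.10 ± 0.33 (SE, limma adjusted p = 0.000108) and Agt, the angiotensin precursor that hepatocytes secrete, by 1.53. Enpep, the aminopeptidase that converts angiotensin II to III, fell by 1.42 ± 0.18 (limma adjusted p = 0.000365), and the receptor-associated protein Agtrap by 0.61. Agtrap did not pass without CDAA 1, CDAA 3 and Std 3 (-0.52). Ace, the converting enzyme, differed by 0.20 without passing (limma adjusted p = 0.659). Hepatocyte markers had means of 6.96 to 8.01 in CDAA and 6.97 to 7.43 in Std, with 3 of 9 risen and 2 fallen; their part in the rise of Agt was not tested.

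Of 27 receptors and ligands of other vasoactive peptides and mediators, 1 rose and 4 fell (18.5%, near the 16.6% of all genes), with a median change of -0.14. Adm, adrenomedullin, a vasodilator peptide, fell by 1.36 ± 0.24 (SE, limma adjusted p = 0.0025), and its receptor Calcrl by 0.84. The natriuretic peptide receptors Npr1 and Npr2, which make cyclic GMP, fell by 0.98 and 0.97. Ramp1, which turns Calcrl into a receptor of the calcitonin gene-related peptide, rose by 0.58, from 3.60 ± 0.22 to 4.17 ± 0.13 (SD, n = 5). Ramp2, which turns it into an adrenomedullin receptor, differed by -0.51 without passing (limma adjusted p = 0.0508).

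In the endothelial flow response list, 2 of 7 genes rose and 2 fell. That is 57.1%, where 16.6% of all genes passed, and the median change was -0.09. Kcnn4, a calcium-activated potassium channel of endothelium and leukocytes, rose by 2.53 ± 0.27 (SE, limma adjusted p = 0.000111). Klf2, a flow-induced transcription factor known to raise Nos3, fell by 0.58 (limma adjusted p = 0.00346). The potassium channel gene Kcnj2 rose by 0.63 and the mechanosensitive channel Piezo1 fell by 0.36, and both calls were lost in most fits with 1 array left out. Kcnj2 did not pass without CDAA 2, CDAA 3, CDAA 5, Std 1, Std 3 or Std 5 (0.50 to 0.62), and Piezo1 passed only without CDAA 4 or Std 2 (-0.38 to -0.32 in the other 8 fits).

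**Figure D4:**
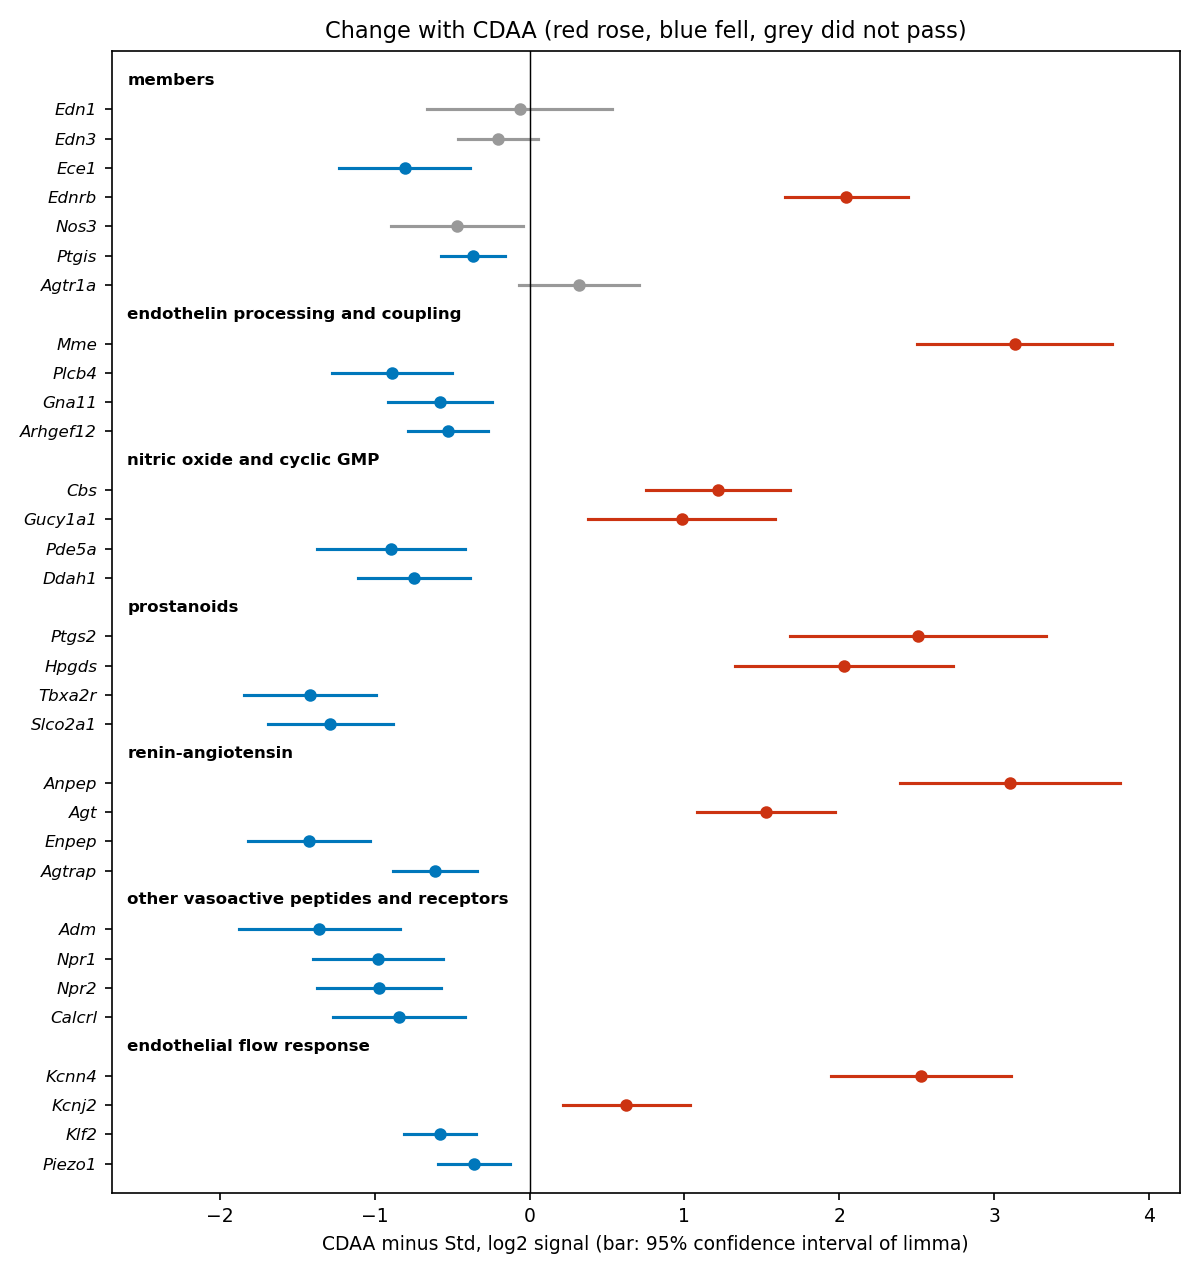
Change of the 7 genes and of the named genes of 6 pathway lists, as CDAA minus Std in log2 signal with its 95% confidence interval; red marks genes that rose, blue those that fell and grey those that did not pass. Mme (3.14) and Anpep (3.10) lie farthest to the right, Ednrb (2.05) leads its group, and Enpep (-1.42) and Tbxa2r (-1.42) lie farthest to the left.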

How the data were processed

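The authors deposited log2 values made with RMA, according to the submitters' processing notes, a method that corrects background, equalises the distributions of the arrays and combines probes into 1 value per probe set. No version, array design or genome build is given in the sources used here. Of 25428 probe sets, 24705 had 1 symbol in the platform annotation; the brightest per symbol gave 24704 genes. The 5 CDAA and 5 Std arrays were compared by linear models in limma (version 3.58.1, functions lmFit and eBayes, R 4.3.3); tests were two-sided and p-values were adjusted over all genes by the Benjamini-Hochberg method. The procedure was tested on simulated data with 200 changed genes. It recovered 17% of changes of 0.5, 87.5% of changes of 1 and 98% of changes of 2, with 0, 13 and 16 false calls. In the data 4106 genes passed, so the adjustment was less strict there than in the simulation. The simulated shares therefore do not give the power of the fit to the data. A gene that did not pass can still have changed by about 0.5. For arrays, their number limits the precision, and p-values measure the spread between pools of mice.

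The genes and lists were chosen with earlier results of these data known. Named were the 7 measured members, the likeness genes, and in each pathway list, up to 4 genes that passed, taken by the size of change; Plcb3, Ramp1, Ramp2, Hpgd, Tbxas1, Ptgfr, Ptgir, Ace, Cav1, Nos2, Gnaq, Gna12, Gna13, Rhoa, Rock1, Cdh5, Kdr, Cygb, Pdgfra, Pdgfrb, Ecm1, Lrat, Reln, Rgs5, Mylk, Tagln, Smtn, Cspg4 and the genes in the closing section were added after their values were seen. Of 104 pathway genes listed, 94 had a named probe set. Other fits changed the scaling, the filter on dim genes, the variance model, array weights, a replicate block, an endothelial covariate, the size tested, and the arrays included.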

Additional observations from a re-analysis of the deposited data

Results flagged for a closer look

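A single array lay far from the other 4 of its diet, with a gap to the nearest of them above 0.71 of the group's range, in 4 of 80 groups of 5 arrays screened; chance gives about 1 in 20. The neutrophil marker mean was 10.08 in Std 3 (others 4.18 to 4.56), and the recruited macrophage marker mean was 5.78 in the same array (others 4.95 to 5.07). Ptgs2 was 7.04 in Std 3, where the other Std arrays had 4.72 to 5.29. Klf2 was 8.66 in CDAA 5, where the other CDAA arrays had 9.03 to 9.08. None of the 7 genes of the endothelin and vasoactive set had such an array.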

How the results depend on the processing

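Ednrb passed, with the same sign, under all 22 other fits (1.95 to 2.68). With 1 array left out, 2 to 3 members passed (1 rose, 1 to 2 fell). Without CDAA 1 and CDAA 3 (also without Std 3, a fit chosen after seeing the data), 1 member passed and 0 fell, with 2612 (2689) genes changed and 1307 (1288) fallen. With the endothelial covariate 1 member passed and 0 fell, and 271 genes changed, 186 risen and 85 fallen, among them 4 pathway genes, 3 risen and 1 fallen. In a test against a change of 0.5 (treat), 1 member passed and 0 fell, and 452 genes changed, 357 risen and 95 fallen, among them 9 pathway genes, 6 risen and 3 fallen. The covariate moves with diet, and a test against 0.5 is stricter by construction; the cause of the lower counts without these arrays was not tested. With 1 array left out Edn1 ranged from -0.22 to 0.15. It also changed sign with array weights (0.046), the covariate (0.62), without CDAA 1 and CDAA 3 (0.13) and without Std 3 too (0.29). Nos3 (0.28) and Agtr1a (-0.0047) did so with the covariate. With the replicate number as a block 3 members, 34 pathway genes and 4178 genes passed. Same-numbered arrays deviated together with r of 0.0164 to 0.249, not above 0.1 for each. By this r the same-numbered Std array was the closest for CDAA 2, CDAA 3 and CDAA 4, but not for CDAA 1 and CDAA 5. The main fit does not take the numbers as pairs, and whether they mark pairs was not settled. Signal over background could not be judged here, which limits Edn3, Agtr1a and Ptgis most.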

Other observations

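Contractile genes of the cells that endothelin and nitric oxide act on went in different directions. Mylk (0.90) and Tagln (0.80) rose, and Smtn (-0.73) fell. Acta2, smooth muscle actin, differed by 0.50 between the diets (limma adjusted p = 0.0535) and did not pass. The muscle myosin Myh11 (0.19), calponin, Cnn1 (-0.22), Myl9 (0.34) and Actg2 (-0.11) did not pass either. Rgs5, a regulator of G protein signalling, went from 7.73 ± 0.43 to 10.18 ± 0.25 (SD, n = 5). Among stellate cell and fibroblast markers the collagen genes Col1a1, Col3a1 and Col1a2 rose by 3.43, 2.59 and 2.47 and the proteoglycan Lum by 2.50, whereas Ecm1, a matrix protein, had the only fall of the 15 (limma adjusted p = 7.52e-05).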
